A study of Mus musculus with 3 samples.

Results

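Stretches of the genome in which FLI1 and RUNX1 reads were both abundant were collected from mature megakaryocytes (MK_Mat), the large cells that release platelets. The mouse genome (mm9) was cut into 6637250 bins of 400 bp, and 1546 of them held at least 60 FLI1 reads, at least 6 RUNX1 reads and fewer than 15 input reads. They are 8% of the 19328 bins that met the FLI1 and input limits. Adjacent bins were merged into 1459 regions, called co-occupied regions here, and each was described by its bin with the most FLI1 reads. The bins were thus chosen by their FLI1, RUNX1 and input reads, and these counts are given as a description. The comparison consisted of 7658 bins with at least 60 FLI1 reads, 0 or 1 RUNX1 read and fewer than 15 input reads, which merged into 7098 FLI1-only regions once those next to a co-occupied bin had been set aside. The names co-occupied and FLI1-only stand for these read counts. Co-occupied does not mean that binding of both factors was shown, and some of these regions lie in stretches with raised input, given below. FLI1-only does not mean that RUNX1 was absent, which cannot be shown at the depth of the RUNX1 library. The other 10124 bins with at least 60 FLI1 reads under the same input limit held 2 to 5 RUNX1 reads and belong to neither set. Because bins with more FLI1 reads also held more RUNX1 reads, shares of the FLI1-only regions are weighted to the FLI1 classes of the co-occupied regions, from 60 to 79 reads up to 200 and more, except where they are given by class.

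The study examined transcription factor (TF) occupancy in wild-type CD1 mice. Fetal liver cells, of embryonic day 15 by the sample labels and day 14 by the methods, were cultured with thrombopoietin for 5 days, depleted of TER119, GR1 and CD11b cells, and enriched for large cells over albumin gradients. Chromatin was precipitated with an antibody against FLI1 in 1 library and against RUNX1 in another, and the input library is chromatin without precipitation. The methods describe sonicated chromatin for these antibodies but micrococcal nuclease digestion for the input control. Labels and methods differ on the fragmentation of the input, so whether it matches the other libraries in this is not known. By the methods, at least 3 precipitates were pooled for sequencing. Each antibody and the input has 1 library, so replicates are lacking and conditions could not be tested against each other. All intervals below are exact 95% binomial intervals that cover counting error only. With 1 read kept per position and strand, as the deposited FLI1 and RUNX1 files already had it, 62946422 FLI1, 3973856 RUNX1 and 21745220 input reads remained, which is 9.48, 0.599 and 3.28 reads in the mean bin. The RUNX1 file is thus the shallowest, and it holds far fewer reads than the unique tags listed in the supplement for this library, for a reason that was not tested. The limits of the rule thus lay at 6.33 times the genome mean for FLI1 and 10.02 times for RUNX1, and at 4.58 times for input.

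FLI1 belongs to the ETS family of TFs, whose members bind DNA around a GGAA core, and RUNX1 binds a short motif through its Runt domain, usually with its partner CBFB. Both are needed for normal megakaryocyte maturation and platelet number, and mutations in either gene cause inherited platelet disorders in people. Promoters and enhancers of blood cells are often occupied by several of these factors together, along with GATA1, TAL1 and NF-E2.

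The DNA under a few co-occupied regions is shown first, because the rule did not use the motifs in it. The examples were picked to show RUNX and ETS matches, and none without either is printed, so their motifs do not stand for the frequencies given further on. Each sequence covers 201 bases around the point of the bin with the most FLI1 reads, on the plus strand of mm9, overlaps no annotated exon, and may reach past the 400-bp bin. Capitals mark RUNX matches (TGTGGT or TGCGGT) and ETS matches (CAGGAA or CCGGAA followed by A or G), read on either strand. The first 3 hold a RUNX match within 31 bases of an ETS match. The window in Selp, which encodes the granule receptor P-selectin, has 5 bases between them, and the windows near Itgb3 and Gtf3c5 have 13 and 31. The RUNX match near Itgb3 lies just outside the 400-bp bin, which counts as ETS without RUNX in the shares given further on.
Selp, intron (chr1:166065615-166065815): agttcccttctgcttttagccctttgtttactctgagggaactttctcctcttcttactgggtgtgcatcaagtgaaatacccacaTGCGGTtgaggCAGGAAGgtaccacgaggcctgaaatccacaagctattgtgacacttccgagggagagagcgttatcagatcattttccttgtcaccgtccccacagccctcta
Itgb3, intron (chr11:104475498-104475698): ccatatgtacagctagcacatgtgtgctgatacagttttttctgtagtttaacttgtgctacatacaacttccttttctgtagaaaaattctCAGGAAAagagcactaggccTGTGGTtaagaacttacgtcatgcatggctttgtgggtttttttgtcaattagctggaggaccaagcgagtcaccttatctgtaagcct
Gtf3c5, upstream (chr2:28454822-28455022): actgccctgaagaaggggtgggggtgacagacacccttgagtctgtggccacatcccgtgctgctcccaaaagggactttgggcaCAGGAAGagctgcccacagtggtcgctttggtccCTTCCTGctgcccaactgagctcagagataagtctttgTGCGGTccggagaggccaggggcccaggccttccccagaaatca

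The next 6 hold RUNX matches but no ETS match among these letters. In the window nearest to Rnls 2 RUNX matches have 2 bases between them, and in the window upstream of Slc6a4, the serotonin transporter gene, 2 lie 3 bases apart. The window in Lyl1, which encodes a TF related to TAL1, holds 4 matches, and those upstream of Nbeal2 and F2r hold 2 each.
Rnls, nearest gene (chr19:33175903-33176103): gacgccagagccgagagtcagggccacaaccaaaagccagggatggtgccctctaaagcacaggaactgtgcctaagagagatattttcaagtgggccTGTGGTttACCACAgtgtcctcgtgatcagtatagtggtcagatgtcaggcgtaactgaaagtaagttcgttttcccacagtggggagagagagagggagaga
Slc6a4, upstream (chr11:76806459-76806659): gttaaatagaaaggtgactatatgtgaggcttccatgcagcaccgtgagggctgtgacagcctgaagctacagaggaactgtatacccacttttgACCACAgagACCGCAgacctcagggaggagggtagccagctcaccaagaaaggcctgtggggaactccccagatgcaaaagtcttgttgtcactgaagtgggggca
Lyl1, intron (chr8:87227414-87227614): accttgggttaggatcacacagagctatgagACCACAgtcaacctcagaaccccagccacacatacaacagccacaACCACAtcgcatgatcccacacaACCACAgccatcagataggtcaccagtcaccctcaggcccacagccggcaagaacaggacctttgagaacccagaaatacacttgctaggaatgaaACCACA
Nbeal2, upstream (chr9:110568493-110568693): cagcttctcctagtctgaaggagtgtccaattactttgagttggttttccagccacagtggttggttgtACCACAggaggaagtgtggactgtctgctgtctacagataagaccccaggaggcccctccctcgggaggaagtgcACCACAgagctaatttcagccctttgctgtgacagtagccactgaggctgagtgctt
F2r, promoter (chr13:96388444-96388644): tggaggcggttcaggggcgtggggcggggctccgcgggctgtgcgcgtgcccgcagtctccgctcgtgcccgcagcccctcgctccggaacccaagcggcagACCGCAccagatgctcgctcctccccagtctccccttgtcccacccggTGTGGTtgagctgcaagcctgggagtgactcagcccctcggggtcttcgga
Nfe2, promoter (chr15:103088934-103089134): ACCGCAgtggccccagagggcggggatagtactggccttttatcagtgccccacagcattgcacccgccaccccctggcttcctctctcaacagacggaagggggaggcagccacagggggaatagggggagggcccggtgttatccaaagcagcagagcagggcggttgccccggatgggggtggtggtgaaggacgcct

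Many co-occupied regions hold no RUNX match, and 2 of those with most FLI1 reads are shown for them. The window in Vav1 holds 2 ETS matches and that at the BC031781 promoter holds 3.
Vav1, intron (chr17:57429791-57429991): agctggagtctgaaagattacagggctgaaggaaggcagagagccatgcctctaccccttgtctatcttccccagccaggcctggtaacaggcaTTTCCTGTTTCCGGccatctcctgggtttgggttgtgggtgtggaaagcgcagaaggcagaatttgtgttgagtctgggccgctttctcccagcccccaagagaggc
BC031781, promoter (chr1:182781036-182781236): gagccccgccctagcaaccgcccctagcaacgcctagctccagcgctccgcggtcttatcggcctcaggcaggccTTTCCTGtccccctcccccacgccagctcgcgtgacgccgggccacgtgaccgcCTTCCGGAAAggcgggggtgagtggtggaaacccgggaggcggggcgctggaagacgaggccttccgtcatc

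The last 5 are the FLI1-only regions with most FLI1 reads. Their windows hold 2, 4, 2, 1 and 1 ETS matches, and that in Sept9 also holds a RUNX match. By their 400-bp bins, on which all shares rest, Cd276 has a RUNX match outside its window and Sept9 has none.
Sfxn3, nearest gene (chr19:45133052-45133252): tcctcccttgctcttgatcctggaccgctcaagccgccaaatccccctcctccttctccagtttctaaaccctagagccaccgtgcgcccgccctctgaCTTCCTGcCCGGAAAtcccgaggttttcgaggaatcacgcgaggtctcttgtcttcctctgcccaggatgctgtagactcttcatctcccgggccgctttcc
Maml3, intron (chr3:51804106-51804306): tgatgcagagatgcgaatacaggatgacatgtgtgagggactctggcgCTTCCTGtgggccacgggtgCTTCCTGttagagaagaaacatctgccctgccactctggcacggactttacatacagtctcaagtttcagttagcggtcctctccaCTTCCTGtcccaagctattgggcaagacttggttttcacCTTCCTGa
Idh2, nearest gene (chr7:87223735-87223935): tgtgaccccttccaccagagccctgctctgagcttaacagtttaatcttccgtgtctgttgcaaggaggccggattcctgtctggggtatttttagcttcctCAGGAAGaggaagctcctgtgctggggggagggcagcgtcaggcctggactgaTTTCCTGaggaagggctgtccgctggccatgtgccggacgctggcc
Cd276, promoter (chr9:58389711-58389911): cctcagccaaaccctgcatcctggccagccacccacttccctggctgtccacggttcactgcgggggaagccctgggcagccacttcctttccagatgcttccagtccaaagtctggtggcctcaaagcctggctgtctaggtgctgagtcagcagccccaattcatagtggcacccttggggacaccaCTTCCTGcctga
Sept9, intron (chr11:117195515-117195715): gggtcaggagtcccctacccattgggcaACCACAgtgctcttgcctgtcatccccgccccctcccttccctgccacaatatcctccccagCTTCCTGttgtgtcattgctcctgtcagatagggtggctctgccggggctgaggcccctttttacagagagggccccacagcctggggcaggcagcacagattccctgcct

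Some co-occupied regions lie where reads of all 3 libraries were raised over long stretches. On chromosome 2, 50 of the 1459 regions, with 75 bins, fell into 1 segment of 148000 bp around Cwc22 and Zfp385b (chr2:77717201-77865200). Across the whole segment FLI1 reads stood at 5.09, RUNX1 at 8.59 and input at 2.69 times the genome mean, and 64 of its 370 bins reached 15 input reads. Of the segment's regions 26% held a RUNX match and 34% an ETS match. The region with most RUNX1 reads of all, at the predicted gene Gm10722 on chromosome 9, held 74 FLI1, 50 RUNX1 and 9 input reads, with RUNX1 at 18.8 and input at 3.00 times the genome mean in its flanks. To set such places apart, reads between 1 and 10 kb on either side of each region were counted. RUNX1 reached 3 times the genome mean there in 62 co-occupied regions and in 15 FLI1-only regions. These 62 also include regions with local peaks in a raised neighbourhood, such as 3 at Itgb3 and 1 at Junb, and the shares below are given with and without them where they differ. The part of the raised stretches in the results was not tested otherwise.

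**Figure D1:**
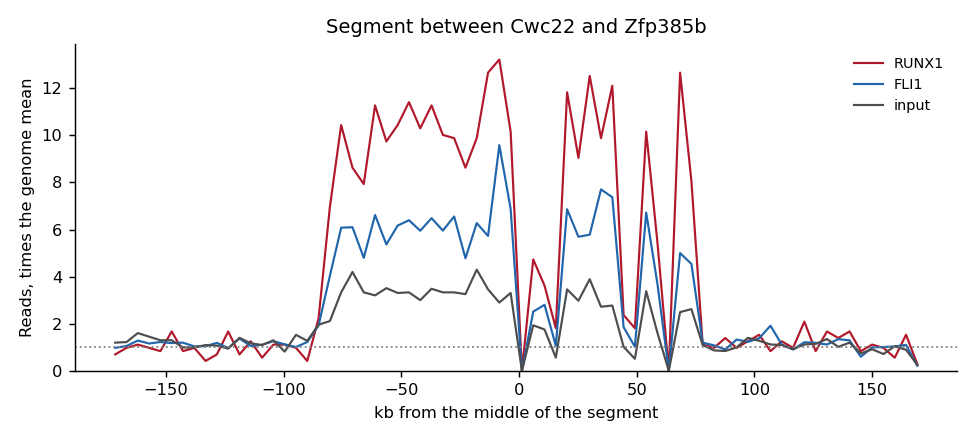
Reads of the 3 libraries across the segment between Cwc22 and Zfp385b on chromosome 2, in steps of 12 bins, as multiples of the genome mean against the distance from the middle of the segment in kb. All 3 lines step up and down together at the same places, RUNX1 to the highest multiples and input to the lowest, and return to about 1 (dotted line) outside the segment.

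Within the 1546 bins, FLI1 reads ranged from 60 to 420 with a median of 116, RUNX1 reads from 6 to 50 with a median of 7, and input reads from 0 to 14 with a median of 5. Most bins sat close to the RUNX1 limit. Exactly 6 RUNX1 reads were counted in 671 of them, 1133 further bins held 5, and 187 held 10 or more. At the FLI1 limit 95 bins held 60 to 64 reads, and 89 bins with as many RUNX1 reads held 55 to 59. At the input limit 14 bins held 14 reads, while 12 otherwise alike held 15. A further 667 bins held at least 60 FLI1 reads but also at least 15 input reads and were not kept. Of these 667, 486 held at least 6 RUNX1 reads, beside 1546 of the 19328 bins under the input limit. Mean input was 5.18 reads in co-occupied and 5.07 in FLI1-only bins, against 3.28 over the genome.

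The more FLI1 reads a bin held, the more often it also held RUNX1 reads. At least 6 RUNX1 reads occurred in 0.091% of all bins under the input limit and in 8% of those with at least 60 FLI1 reads. The share was 0.0523% (0.0506 to 0.0541) with 0 to 19 FLI1 reads, 2.39% (2.17 to 2.62) with 40 to 59, 4.61% (4.15 to 5.10) with 60 to 79, and 27.4% (24.7 to 30.2) with 200 and more. Mean input was 3.19 reads per bin with 0 to 19 FLI1 reads, 4.82 with 20 to 39 and 5.05 with 40 to 59, and between 5.002 and 5.31 in the classes from 60 to 79 upwards.

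**Figure D2:**
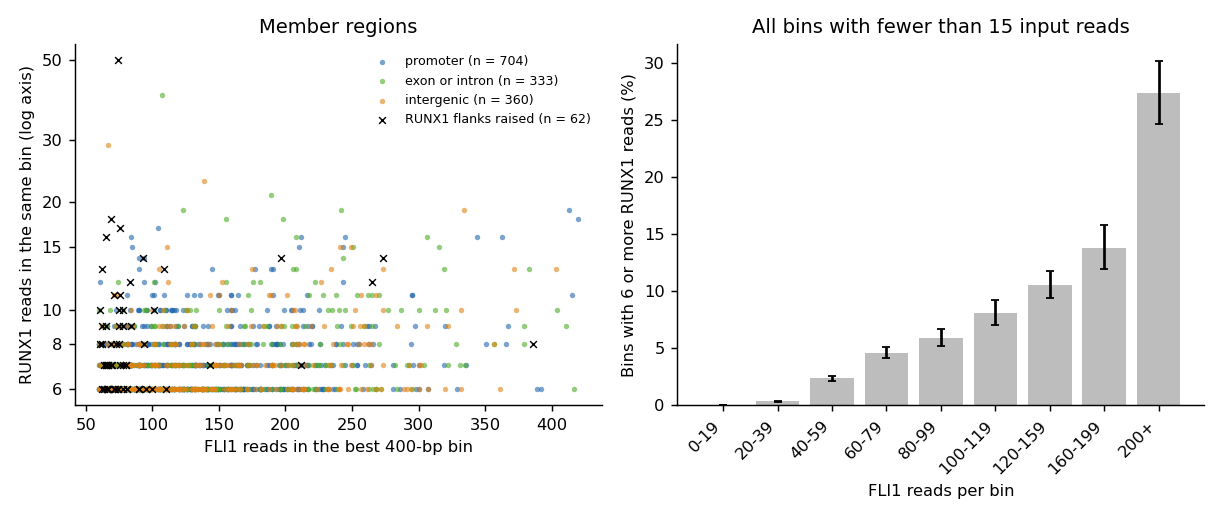
Left, FLI1 reads (x) and RUNX1 reads (y, log axis) in the best bin of each of the 1459 co-occupied regions, by location, with crosses for the 62 regions whose RUNX1 flanks reached 3 times the genome mean. Right, the percentage of bins with at least 6 RUNX1 reads in each class of FLI1 reads, with 95% intervals. Most points lie near the lower limit of 6 RUNX1 reads, and the bars climb to 27.4% in the highest FLI1 class.

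The RUNX1 reads in these bins came from both strands, which the rule did not use. Reads of any source without a strand bias would do the same, so this is a description only. Of 11596 RUNX1 reads 50.3% lay on the plus strand, 1429 bins (92.4%) held at least 2 on each strand, and 5 bins held reads of 1 strand only. When opposite-strand reads at most 400 bp apart were taken as pairs and each pair was counted once, the bins lost 37.1% of their RUNX1 reads, the median was 4, and 293 of the 1546 still reached 6. Reads of separate fragments in 1 bin can form such pairs too, so bins chosen for many RUNX1 reads lose reads by the count itself. The lower count is therefore a stricter RUNX1 limit and no independent check. How many of these pairs are the 2 ends of 1 fragment was not tested. For some of the regions named below, this lower count is given as the paired count. Of the 141 regions near genes of the 15 lists used below, 26 reached 6 by it. Those that did not include regions at Lcp2 and Thbs1, with 5, at Fli1 and Vasp, with 4, and at Gp1ba, with 3.

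Reads were then counted by distance from the point with most FLI1 reads. In the 1397 co-occupied regions without raised flanks RUNX1 stood at 16.2 times the genome mean within 100 bp of that point and at 2.00 times from 700 to 1000 bp. In FLI1-only regions it was 1.70 times in the centre and 1.66 times at the far end. The RUNX1 height near that point, which lies in the chosen bin, follows from the rule. FLI1 was alike in both sets in the centre (24.99 and 24.6 times), which follows from the shared FLI1 limit and the weighting to FLI1 classes. It was somewhat higher in the flanks of co-occupied regions (2.93 and 2.42 times from 400 to 700 bp). Input in the centre was 1.45 times the genome mean in co-occupied and 1.54 times in FLI1-only regions.

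**Figure D3:**
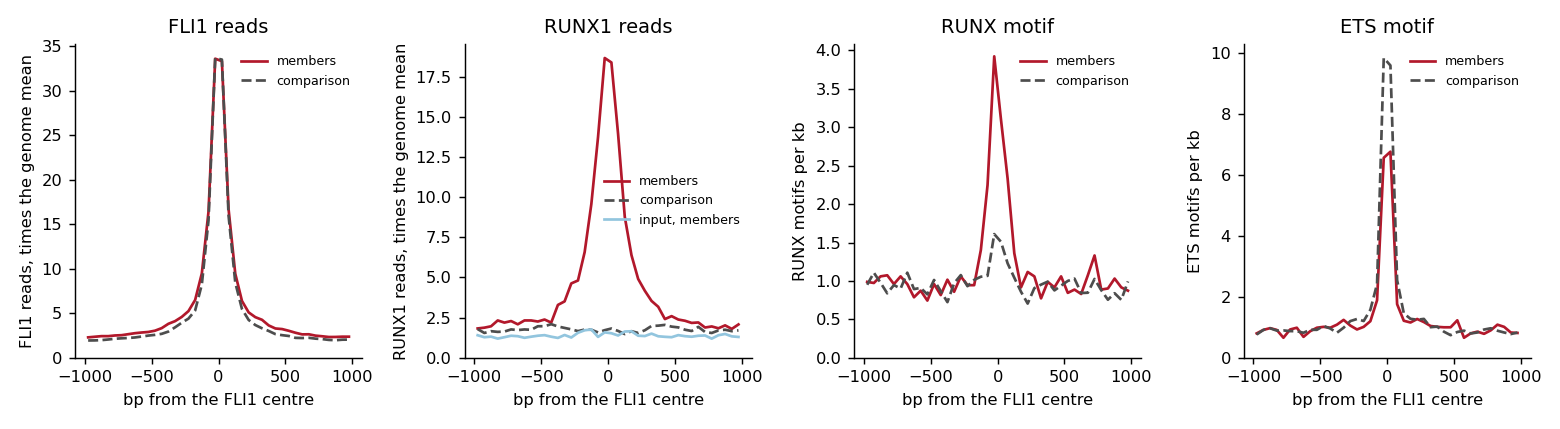
Reads as multiples of the genome mean (FLI1 and RUNX1 panels, with input in the second) and motif matches per kb (RUNX and ETS panels) against the distance in bp from the point with most FLI1 reads, in steps of 50 bp, for 1397 co-occupied regions (red) and 7083 FLI1-only regions weighted to the same FLI1 classes (dashed). FLI1 curves nearly coincide at the centre, as the weighting to FLI1 classes implies, and RUNX1 reads are high near the centre as the rule requires. RUNX matches peak at the centre of the co-occupied regions, and ETS matches peak in both sets but higher in FLI1-only regions.

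RUNX matches were more frequent in co-occupied than in FLI1-only regions. A RUNX match was present in 767 of 1459 co-occupied bins, or 52.6% (49.97 to 55.2), against 36.8% of FLI1-only bins and 27.6% of bins sampled evenly from the genome. Bins with at least 2 RUNX matches made up 18.6% (16.6 to 20.7) against 6.83%. Within 100 bp of the FLI1 centre the matches came to 2.90 per kb in co-occupied and 1.35 per kb in FLI1-only regions, while from 400 to 700 bp away both sets held 0.896 and 0.929 per kb. The difference was seen in all 6 FLI1 classes, with 46.0% against 37.4% at 60 to 79 reads and 58.2% (52.2 to 63.98) against 36.8% (29.98 to 44.0) at 200 and more. Without the 62 regions with raised flanks the share was 53.5% against 36.8%.

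The ETS match, the motif of FLI1 itself, was less frequent in the co-occupied regions. It was found in 919 of them, or 62.99% (60.5 to 65.5), against 81.2% of FLI1-only bins weighted to the same FLI1 classes and 24.99% of genome bins. Within 100 bp of the centre there were 4.25 matches per kb against 6.11. It was 44.1% (38.5 to 49.8) against 69.1% (67.5 to 70.7) at 60 to 79 reads and 49.6% (42.96 to 56.2) against 75.8% (73.7 to 77.9) at 80 to 99. The gap was narrowest at 200 and more, with 85.5% (80.8 to 89.4) against 92.2% (87.5 to 95.6), where the intervals overlap. Without raised flanks it was 64.3% against 81.5%.

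Across classes of RUNX1 reads the RUNX share was higher and the ETS share lower at the top than at the bottom, though not at each step. Among all bins with at least 60 FLI1 reads, a RUNX match was found in 35.5% with 0 RUNX1 reads, 46.2% with 5, 50.7% with 6 and 59.9% with 10 and more. The ETS match went from 73.7% to 63.99%, 64.2% and 51.9% in the same classes. These shares are not weighted by FLI1 reads, whose median went from 80 with 0 RUNX1 reads to 150 with 10 and more. Weighted to the FLI1 classes of the co-occupied regions, the RUNX share went from 34.9% to 56.4% and the ETS share from 80.5% to 46.7%. Mean input was 5.08 reads in the bins with 0 RUNX1 reads and 5.44 in those with 10 and more, and 0.0933% and 14.4% of these bins had raised flanks. Away from promoters the RUNX match went from 39.8% with 0 reads to 67.6% with 10 and more.

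**Figure D4:**
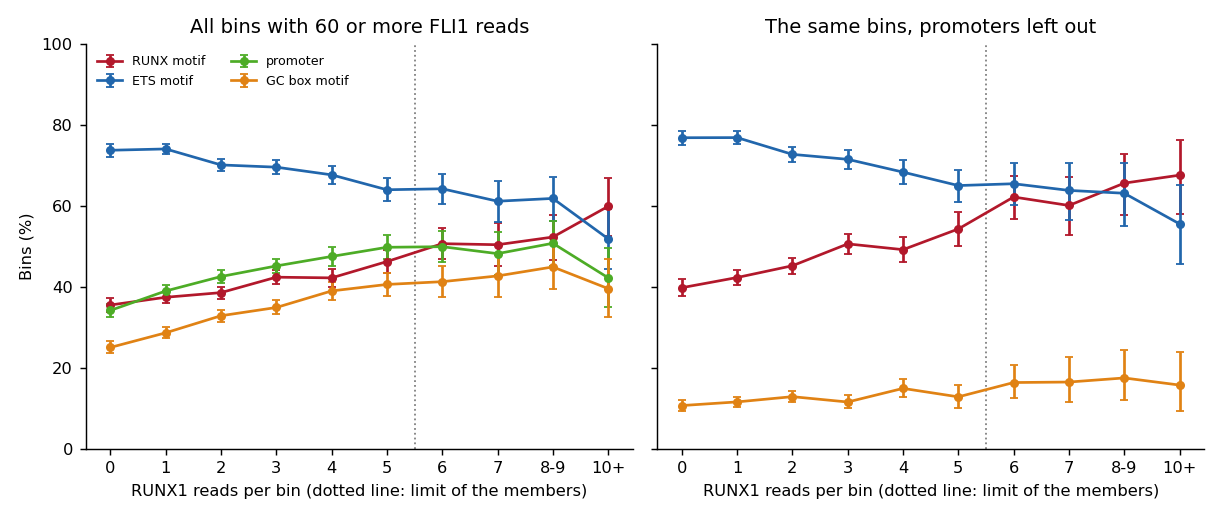
Percentage of bins with at least 60 FLI1 reads that hold a RUNX match, an ETS match or a GC box (GGGCGG), or lie at a promoter, by RUNX1 reads per bin, with 95% intervals. Left, all bins. Right, bins outside promoters. RUNX matches increase from 35.5% to 59.9% and ETS matches decrease from 73.7% to 51.9% across all bins, and the dotted line marks the limit of 6.

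Base composition differed between the sets, so the motif shares were also compared at equal GC content. Co-occupied bins had a median GC content of 55% and FLI1-only bins 50.5%, against 41.5% over the genome. From 45 to 55% GC a RUNX match was present in 63.6% (59.5 to 67.7) of 550 co-occupied bins against 41.0%, and an ETS match in 70.9% against 82.5%. From 65% GC upwards the RUNX shares were 36.2% (30.8 to 41.8) and 26.8%, and the ETS shares 57.3% and 75.02%. Both differences kept their direction in all 4 GC classes over all bins. Outside promoters the ETS shares at 65% GC and more were 77.8% (52.4 to 93.6) of only 18 regions and 75.5%.

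The 1459 regions fell into 4 groups by these motifs. Both motifs were present in 494 regions, RUNX without ETS in 273, ETS without RUNX in 425 and neither in 267. FLI1-only regions held the 4 kinds at 29.9%, 6.90%, 51.3% and 11.9%, against 33.9%, 18.7%, 29.1% and 18.3% in the co-occupied set. The intervals were 16.7 to 20.8% for RUNX without ETS and 26.8 to 31.5% for ETS without RUNX in the co-occupied set. FLI1 reads were highest where an ETS match was present, with a median of 142 with both motifs and 131 with ETS only, against 98 with RUNX only and 93 with neither. The median of RUNX1 was 7 reads in all 4 groups. With a limit of 6 reads, and 6 to 8 reads in 1244 of the 1546 bins, this median had little room to differ. Of the regions with neither motif 62.2% lay at promoters, and 28 of the 267 had raised flanks. Outside promoters and without raised flanks, neither motif was found in 10.97% (8.74 to 13.5) of co-occupied and 10.01% of FLI1-only regions. In the regions with both motifs, the nearest RUNX and ETS matches lay within 30 bp in 36.8% (32.6 to 41.3) against 33.4% in FLI1-only regions weighted to the same FLI1 classes, a share inside that interval.

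For the other motifs of blood cells the difference was smaller over all regions. GATA matches (AGATAA or TGATAA) were found in 31.6% (29.2 to 34.1) of co-occupied and 31.4% of FLI1-only regions, and outside promoters in 47.2% (43.6 to 50.8) and 41.6%. For GATA the order turned with the FLI1 class, from 27.5% (22.6 to 32.8) and 33.4% (31.8 to 35.1) at 60 to 79 reads to 42.9% (37.1 to 48.9) and 29.5% (23.2 to 36.5) at 200 and more. The NF-E2/AP-1 motif (TGACTCA or TGAGTCA) was present in 9.25% (7.81 to 10.9) and 11.2%, E-boxes (CAGATG or CAGCTG) in 40.5% and 41.5%, and the CREB motif TGACGTCA in 2.26% (1.56 to 3.16) and 1.83%. Over genome bins these shares were 42.0% for GATA, 6.19% for NF-E2/AP-1, 38.2% for E-boxes and 0.224% for CREB. The GC box GGGCGG, a frequent promoter element, was found in 42.4% (39.8 to 44.9) against 31.5%. Over genome bins it was 3.79%, and at promoters the 2 sets had 69.3% (65.7 to 72.6) and 58.0%. At 200 and more FLI1 reads the order of the GC box turned, with 36.2% (30.6 to 42.1) and 44.6% (37.4 to 51.9), and the intervals overlap.

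Promoters held nearly as many co-occupied regions as all other places together. At a protein-coding TSS, taken as at most 2 kb away, lay 709 regions, or 48.6% (46.0 to 51.2), against 40.6% of FLI1-only regions. Introns held 340 regions (23.3% against 26.8%), intergenic DNA 389 (26.7% against 30.4%) and exons 21 (1.44% against 2.22%). At promoters the median distance to the TSS was 126 bp, and elsewhere it was 22441 bp. Without raised flanks the promoter share was 50.4% against 40.9%. The promoter difference depended on the strength of the signal. At 60 to 79 FLI1 reads 50.5% (44.8 to 56.2) of co-occupied and 31.5% (29.96 to 33.2) of FLI1-only regions lay at promoters. At 200 and more the order was the other way round, with 39.01% (33.3 to 44.97) and 48.7% (41.5 to 56.0), and the intervals overlap. With pairs of RUNX1 reads counted once, 285 regions remained and the shares were 42.1% and 42.4%, so the higher promoter share was not seen among these. RUNX matches were more frequent in co-occupied regions at both kinds of place, with 63.6% (60.04 to 67.1) against 42.1% outside promoters and 40.9% (37.3 to 44.6) against 29.0% at promoters.

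Next, the genes near these regions were examined. Up to 20 kb from the TSS, 1693 of 22367 protein-coding genes had a co-occupied region, or 7.57%, and a FLI1-only region near 5787, or 25.9%. Most of the 1693 genes had 1 such region, 104 had 2 and 16 had 3 or more, and 714 also had a FLI1-only region. A region counted for every gene in that range, so genes of the same or different lists can share it. Hnrnpa1 shares one with Nfe2, Psmc3 with Sfpi1, F5 with Selp, and Pfn1 with Gp1ba. The intervals treat such genes as separate. The study's arrays listed genes higher in MK_Mat cells, of which 686 (3.07% of the 22367) were matched by name or accession. Of these, 139 had a co-occupied region in that range, or 20.3% (17.3 to 23.5), and 351 had a FLI1-only region (51.2%). When each region was assigned to its nearest gene, 10.9% of them (9.34 to 12.6) went to a gene of that list, beside 9.04% of FLI1-only regions, a share just below the interval that fell inside it in 3 of the 11 alternative settings.

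The lists of megakaryocyte and platelet genes, 189 genes in all, had a co-occupied region within 20 kb at 52 genes, or 27.5% (21.3 to 34.5). That is 3.63 times the 7.57% of all protein-coding genes, and 115 of the 189 (60.8%) had a FLI1-only region, beside 25.9% of all genes. By nearest gene the FLI1-only share lay inside the interval of the co-occupied share for each of the 5 lists. Adhesion receptor genes were nearest to 0.685% (0.329 to 1.26) of co-occupied and 0.486% of FLI1-only regions, signalling genes to 1.64% (1.06 to 2.44) and 1.35%, and granule genes to 0.754% (0.377 to 1.35) and 0.938%. By function these were 7 of 28 adhesion receptor genes, 5 of 16 agonist receptor genes, 12 of 54 signalling genes, 11 of 42 granule and secretion genes and 17 of 49 cytoskeleton genes. Near them lay 58 regions, of which 24 held exactly 6 RUNX1 reads and 11 still reached 6 with pairs counted once. Over all co-occupied bins these were 671 and 293 of 1546. RUNX matches were found in 36 of the 58 and ETS matches in 40, beside 52.6% and 62.99% of all co-occupied regions.

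**Figure D5:**
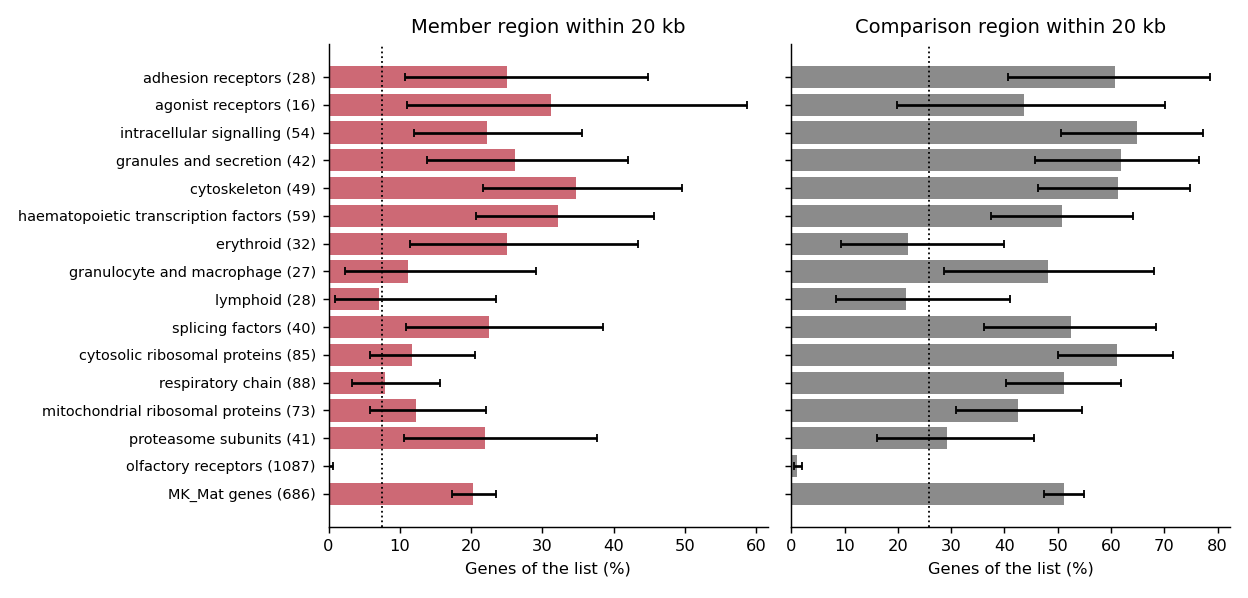
Percentage of the genes in each list with a co-occupied region (left, red) or a FLI1-only region (right, grey) within 20 kb of the TSS, with 95% intervals and the number of genes in parentheses. Dotted lines mark all protein-coding genes, 7.57% on the left and 25.9% on the right. On the left the intervals of 9 of the 15 lists lie wholly above the line, among them haematopoietic TF, cytoskeleton, splicing factor and proteasome genes, and those of olfactory receptor genes lie below it.

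Among the adhesion receptors, Itgb3 had most regions. It encodes integrin beta 3, which with Itga2b forms the fibrinogen receptor of platelets. Its 4 regions held 272 FLI1 and 6 RUNX1 reads 11570 bp upstream of the TSS, 197 and 14 reads 3630 bp downstream, 78 and 10 reads at 6030 bp, and 212 and 7 reads at 10830 bp, with 8, 9, 7 and 4 input reads. The highest RUNX1 count thus lay in the first intronic region, where the paired count was 7. Across these 22800 bp FLI1 stood at 4.03, RUNX1 at 3.75 and input at 1.59 times the genome mean.

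Selp had 404 FLI1, 10 RUNX1 and 1 input read in an intron 11967 bp from its TSS, one of the highest FLI1 counts of the set, with a paired count of 8. Subunits of the von Willebrand factor receptor were represented by Gp1ba, with 228 FLI1, 6 RUNX1 and 6 input reads 24 bp upstream of its TSS, and by Gp9, with 142, 7 and 5 reads at its promoter and 70, 6 and 1 reads 1930 bp upstream. Itgb1 held 208 FLI1, 8 RUNX1 and 3 input reads 154 bp upstream, and Treml1, which encodes a granule membrane receptor, 129, 6 and 5 reads. The RUNX1 counts at Gp1ba, Treml1 and the upstream Gp9 region are at the limit of the rule.

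Of the agonist receptors, F2r, which encodes the thrombin receptor PAR1, had most RUNX1 reads. Its promoter region held 191 FLI1, 11 RUNX1 and 1 input read 186 bp upstream of the TSS, with 2 RUNX matches and a paired count of 6. The neighbouring receptor gene F2rl2 held 152, 6 and 4 reads 192 bp downstream of its TSS. The serotonin receptor gene Htr2a held 190, 6 and 3 reads in an intron, with 1 base between its RUNX and ETS matches, and the adrenergic receptor gene Adra2a held 162, 6 and 3 reads. A region with 188, 9 and 3 reads lay 17537 bp from the TSS of the prostacyclin receptor gene Ptgir, at the promoter of another gene. P2ry12 and Gp6, other receptor genes in the lists, had no co-occupied region within 20 kb under the limits of the rule. For P2ry12 the paper's supplement lists binding sites of both factors in that range.

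Signalling genes had regions with 6 to 9 RUNX1 reads, several of them high in FLI1. Vav1, which encodes a guanine nucleotide exchange factor of blood cells, had a region of 3 bins in an intron with 411 FLI1, 9 RUNX1 and 3 input reads in the best bin. Lcp2, which encodes the adaptor SLP-76, held 249, 9 and 4 reads, Inpp5d, the gene of the phosphatase SHIP1, 203, 7 and 5, and Fermt3, the gene of the integrin activator kindlin-3, 197, 6 and 8 at its promoter. ETS matches were found in all 13 regions of this list, against 62.99% of all co-occupied regions, and RUNX matches in 7, and 1 of the 13, that in Vav1, kept 6 RUNX1 reads with pairs counted once. The 12 genes are 2.94 times the share of all genes, and with pairs counted once the remaining gene is 1.26 times.

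Granule and secretion genes had 13 regions. Slc6a4 held 111 FLI1, 15 RUNX1 and 11 input reads 5505 bp upstream of its TSS, with a paired count of 9, and a second region with 64, 6 and 9 reads at 2305 bp. Nbeal2, which is needed for alpha granules, had 259, 9 and 4 reads at a region 11935 bp upstream. Vwf, the gene of von Willebrand factor, held 90, 7 and 6 reads 19 bp from its TSS, with 2 RUNX and 2 ETS matches. Vamp8, which encodes a protein of granule fusion, held 109, 8 and 2 reads, and Thbs1, the gene of thrombospondin 1, 107, 9 and 5 reads 15788 bp downstream of its TSS. Tgfb1 had 2 regions with 7 RUNX1 reads each. Pf4, the gene of platelet factor 4, had none within 20 kb under the limits of the rule. The paper's supplement lists FLI1 and RUNX1 binding sites nearer than that to its TSS.

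Cytoskeleton genes formed the largest of these 5 groups, at 17 of 49 genes. Tuba8, an alpha tubulin gene, held 254 FLI1, 11 RUNX1 and 1 input read in an intron, with 2 RUNX matches, and a further region with 164, 7 and 7 reads. Tpm4, a tropomyosin gene, held 204, 10 and 1 reads 1758 bp upstream, with a paired count of 7, and its paralog Tpm1 131, 8 and 6 reads at its promoter. Zyx, which encodes the focal adhesion protein zyxin, had the highest FLI1 count of the list, with 336, 7 and 1 reads 27 bp upstream of the TSS. Vasp, an actin regulator gene, held 226, 8 and 5 reads, and Myh9, the heavy chain of non-muscle myosin IIA, 106, 7 and 1 reads 5 bp from the TSS. Tubb1 had no co-occupied region within 20 kb.

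Of the 15 lists, genes of haematopoietic TFs showed the largest difference in percentage points from the FLI1-only regions when each region was assigned to its nearest gene. They were nearest to 41 of 1459 regions, or 2.81% (2.02 to 3.79), against 1.12% of FLI1-only regions. The FLI1-only share also lay below the interval for proteasome genes (0.480%, 0.193 to 0.986, against 0.136%) and erythroid genes (0.343%, 0.111 to 0.798, against 0.101%). It lay above the interval for cytosolic ribosomal genes (0.411%, 0.151 to 0.893, against 0.947%) and respiratory chain genes (0.274%, 0.0747 to 0.700, against 0.756%). Within 20 kb of the TSS 19 of the 59 haematopoietic TF genes had a co-occupied region, or 32.2% (20.6 to 45.6), and 30 had a FLI1-only region (50.8%). Close to the TSS, within 2 kb, 14 of the 59 (23.7%) had a co-occupied region, against 3.64% of all protein-coding genes. Within 20 kb of their TSS lay 29 regions, of which 8 kept at least 6 RUNX1 reads with pairs counted once. These 8 lay near 11.9% of the genes, or 8.04 times the share of all genes under the same count. RUNX matches were present in 13 of the 29, beside 52.6% of all co-occupied regions.

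Nfe2, which encodes the p45 subunit of the platelet gene regulator NF-E2, had the highest paired count of the list. Its promoter region (chr15:103088401-103089200) held 413 FLI1, 19 RUNX1 and 7 input reads in the bin 166 bp upstream of the TSS and a paired count of 13. Lyl1 had 3 regions within 3600 bp, at 1156 bp upstream of the TSS (181 FLI1, 6 RUNX1 and 2 input reads), at 44 bp (415, 11 and 4 reads) and in the intron at 2044 bp (123, 19 and 13 reads). FLI1 was highest at the Lyl1 TSS and RUNX1 in the intron, where 3 RUNX matches and no ETS match were found in the bin. E2f2, a cell cycle regulator gene, held 155 FLI1, 18 RUNX1 and 1 input read in an intron, 2921 bp upstream of the nearest TSS inside the gene. Cbfa2t3, a partner of the TAL1 complex, had 2 regions at its promoter, with 10 and 6 RUNX1 reads.

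The genes of both factors were themselves among the 19. The Fli1 region, 26 bp upstream of its TSS, held 209 FLI1, 7 RUNX1 and 4 input reads, with none of the RUNX or ETS matches in the bin. Runx1 had 3 regions. One at the distal promoter held 90, 7 and 6 reads with 3 RUNX matches 56 bp from the TSS, a second 3656 bp downstream of it held 197, 9 and 3 reads with 3 RUNX matches in its bin, and the third, at the proximal promoter, held 62, 6 and 5 reads with 2. Its relative Runx3 held 82, 8 and 6 reads at the promoter. Of other regulators, Tal1 held 163, 8 and 2 reads 369 bp from its TSS, Zfpm1, which encodes the GATA1 partner FOG1, 84, 7 and 2, and Etv6, an ETS repressor gene, 122, 6 and 3. Sfpi1, the gene of PU.1, held 295, 11 and 2 reads 11947 bp upstream, at the promoter of another gene, and 106, 6 and 6 reads at its own.

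Gata2 held 134 FLI1, 6 RUNX1 and 6 input reads in an intron 4742 bp from its TSS. Gata1, on chromosome X, had no co-occupied region in range under the limits of the rule, while the paper's supplement lists binding sites of both factors there. Chromosome X as a whole held 4 of the 241 bins with at least 60 FLI1 reads, or 1.66% (0.454 to 4.19), against 8% over the genome, with FLI1 at 0.585, RUNX1 at 0.636 and input at 0.558 times the genome mean.

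Genes of other lineages were examined in the same way, beside the 7.57% of all genes. Of 32 erythroid genes 8 had a co-occupied region within 20 kb (25%, 11.5 to 43.4) and 7 a FLI1-only region (21.9%). They include Epor, the erythropoietin receptor gene (78 FLI1, 6 RUNX1 and 8 input reads), and a region with 75, 7 and 6 reads 18111 bp upstream of the alpha globin gene Hba-a1. A region with 71, 6 and 6 reads lay 6773 bp from the TSS of Klf1, at the promoter of another gene. Granulocyte and macrophage genes had regions at 3 of 27 genes, among them Mmp9 (322, 7 and 9 reads) and Itgb2 (145, 6 and 2), and lymphoid genes at 2 of 28. Both lymphoid genes, Cd3d and Cd3g, are neighbours that share the same regions, the stronger with 306, 16 and 6 reads. Olfactory receptor genes, which blood cells do not use, had regions near 2 of 1087 genes, or 0.184% (0.0223 to 0.663).

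Lists of the basic cell machinery had shares between 7.95% and 22.5%, beside the 7.57% of all genes, and their intervals overlap. Proteasome subunit genes had a co-occupied region at 9 of 41 genes (22.0%, 10.6 to 37.6) and a FLI1-only region at 12 others. Their regions held 6 to 11 RUNX1 reads, as 13065 bp from the TSS of Psmb8, with 133 FLI1, 10 RUNX1 and 7 input reads and 3 RUNX matches, and at the promoter of Psmd7, with 124, 9 and 6 reads. Splicing factor genes had one at 9 of 40 genes (22.5%, 10.8 to 38.5), such as Srsf7 (193, 9 and 8 reads). Cytosolic ribosomal protein genes had one at 10 of 85 (11.8%, 5.79 to 20.6), against 52 with a FLI1-only region (61.2%), and respiratory chain genes at 7 of 88 (7.95%, 3.26 to 15.7), against 45 (51.1%). Rpl37, with 366 FLI1, 8 RUNX1 and 4 input reads 13 bp upstream of its TSS, was the strongest of the ribosomal group. Mitochondrial ribosomal protein genes had one at 9 of 73 (12.3%, 5.80 to 22.1).

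Regions were mostly narrow and scattered. Of the 1459, 1384 were 1 bin long, 68 were 2 bins and 7 were longer, and 1223 had no other within 20 kb. Besides the segment on chromosome 2, the longest runs of neighbours were 5 regions at Rap1gap2 over 30400 bp, 4 at Itgb3 and Myl4, and 3 each at Tomm20, Cbfa2t3, Lyl1, Cd300a, Frmd8, Junb with Hook2, and Cuedc1 with Mrps23. Input over these 9 places was between 1.27 and 1.98 times the genome mean.

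The regions with most RUNX1 reads were of different kinds. After Gm10722 came a region in an intron of Cdk8 with 107 FLI1, 40 RUNX1 and 14 input reads, and 1 near 2610002I17Rik with 67, 29 and 11 reads, neither of which held a RUNX or ETS match. Input in both was well above the mean of 5.18 reads in co-occupied bins. RUNX1 in their flanks stood at 0.944 and 1.34 times the genome mean, so the flank limit did not set them apart. The source of these high counts was not tested. The others described among the first 12 were the regions nearest to Rnls (139, 23 and 0 reads), at Nfe2, in Gse1 (242, 19 and 14) and in the Lyl1 intron, and those of BC031781 (420, 18 and 4), Fignl1 (198, 18 and 8) and E2f2. Their paired counts ran from 9 at BC031781 to 32 at Cdk8. By FLI1 reads the first were BC031781, Exoc6 (417, 6 and 6), the Lyl1 and Nfe2 promoters, Vav1, Selp, Gtf3c5 (403, 13 and 6) and Cog8 (392, 6 and 5). The FLI1-only regions with most FLI1 reads reached the same height, with 415 FLI1 and 1 RUNX1 read near Sfxn3, 372 and 1 at Cd276, 347 and 1 in Maml3, 341 and 0 in Sept9 and 334 and 0 near Idh2. A count of 0 RUNX1 reads in 1 bin allows up to 3 reads, or 5.01 times the genome mean, so RUNX1 at a low level in FLI1-only regions was not detectable at this depth.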

How the data were processed

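Per the labels and methods, the authors aligned sequences with Bowtie against mm9 and deposited the positions of unique reads, from which counts per bin were made here. Repeated positions, 3.24% of the input reads, were removed. The input file has another format and read length, and labels and methods differ on embryonic day, DNA amount, library kit and fragmentation of the input.

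Reads without chrM were placed by their 5′ end, moved inwards by 63 bp (FLI1) or 80 bp (RUNX1, input). Genes came from GENCODE M1 on NCBIM37 (mm9), and motif shares over the genome from every 100th bin. With 1 library per antibody no test was made, and intervals are exact (Clopper-Pearson, 95%). Python 3.11.15, NumPy 2.4.6 and SciPy 1.17.1 were used, and the scripts were tested on simulated data. Genes named are those nearest to the 12 regions with most RUNX1 reads, the 8 with most FLI1 reads, the 5 of most merged bins and the 5 FLI1-only regions with most FLI1 reads, and examples from the 15 lists with a region within 20 kb. List genes without a region were named after their values were seen. Some regions and genes under this rule are not reported here. In the lists 4 symbols were not matched, and 5 of 691 entries of the MK_Mat list. The members and lists were chosen with earlier results of these data known.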

Additional observations from a re-analysis of the deposited data

How the results depend on the processing

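The higher share of RUNX matches and the lower share of ETS matches in co-occupied regions kept their direction under all 11 alternatives tried for each, which included another bin offset, read shift and limits, and, chosen after seeing the data, leaving out regions with raised flanks. The differences ran from 12.7 to 19.03 percentage points for RUNX (15.8 as reported) and from -26.7 to -16.3 for ETS (-18.2 as reported). The number of bins depended on the RUNX1 limit, with 2679 bins in 2525 regions at 5 reads, 512 in 491 at 8 reads, and 293 in 285 with pairs of RUNX1 reads counted once. At 5 reads the RUNX difference was 12.9 points. At 8 reads the RUNX difference was 19.03 and the ETS difference -23.2. With pairs counted once the ETS difference was -26.7, the GATA difference 6.14 (0.148 as reported), the share of regions nearest to an MK_Mat gene 5.90 points higher (1.86 as reported, 0.901 with no input limit and 0.996 with 1 matched region each), and the promoter difference turned to -0.267 from 8.03. With no input limit the differences were -22.1 for ETS, 7.28 for the GC box (10.9 as reported) and 5.32 for promoters. With at least 80 FLI1 reads the promoter difference was 4.99. When 1305 regions were each matched to 1 FLI1-only region of the same FLI1 count, 154 having none, the differences were 12.7 for RUNX, -5.21 for GATA, 14.9 for the GC box and 11.5 for promoters. Within 50 kb of the TSS the megakaryocyte lists stood at 2.65 times the share of all genes (3.63 within 20 kb). Single lists moved further, with 2.30 to 8.47 times for agonist receptors (4.13 as reported), 2.11 to 6.46 for granules and secretion (3.46), 1.53 to 6.35 for erythroid genes (3.303), 2.85 to 8.04 for haematopoietic TFs (4.25), 1.26 to 3.35 for signalling genes (2.94) and 2.18 to 4.35 for the MK_Mat list (2.68). Some reached or crossed the share of all genes, with 0 to 1.95 times for mitochondrial ribosomal (1.63), 0 to 1.67 for respiratory chain (1.05), 0.797 to 2.15 for cytosolic ribosomal (1.55) and 0.567 to 4.84 for lymphoid genes (0.944). Further ranges were 1.69 to 4.42 times for splicing factors (2.97), 1.31 to 2.51 for granulocyte and macrophage genes (1.47) and 0 to 0.125 for olfactory receptors (0.0243). The causes of these shifts were not tested beyond the changed number of regions and genes. No paired analysis was possible because each antibody and the input has 1 library. A low number of RUNX1 reads limits the precision, since most regions sit within 2 reads of the limit.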

Other observations

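The share of bins with at least 60 FLI1 reads that were co-occupied differed between chromosomes. It was 10.8% (9.34 to 12.4) on chromosome 2, with 180 of 1669 bins, of which 75 lie in the segment around Cwc22. On the other autosomes it was between 5.78% on chromosome 14 and 9.81% on chromosome 19. On chromosome X it was 1.66% (0.454 to 4.19), with 4 of 241 bins.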
